A study of Homo sapiens with 6 samples.

Results

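The miR-23, miR-27 and miR-24 miRNAs come from 2 related gene clusters, and their mature 3p products were followed here in extracellular vesicles (EVs) released by cancer spheroids grown in soft or stiff matrix. The members were the rows of the raw miRNA count table named hsa-miR-23a-3p, hsa-miR-23b-3p, hsa-miR-27a-3p, hsa-miR-27b-3p and hsa-miR-24-3p, which made 5 of the 471 names in the table. Spheroids of Cal27, an established human oral squamous cell carcinoma cell line, were grown on wells coated with Matrigel at 3 mg/mL (EV_soft) or 12 mg/mL (EV_stiff), under medium that itself held a little Matrigel, with no other difference in treatment given in the labels. EVs were isolated on day 14 by insulator-based dielectrophoresis, and small RNA was sequenced from 3 libraries per group, which the study describes as separate isolations from repeated cultures. As a model, the groups are limited to 1 cell line, and Matrigel concentration sets the amount of matrix protein together with stiffness.

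A miRNA cluster is transcribed as 1 long precursor, from which Drosha cuts hairpins and Dicer then releases a duplex of a 5p and a 3p strand. Usually 1 strand is retained in the Argonaute complex, and its seed, bases 2 to 8, pairs with target mRNAs. Cluster 23a/27a/24-2 and cluster 23b/27b/24-1 are paralogs, so that each supplies a nearly identical set of miRNAs. In endothelium, miR-23 and miR-27 are known to promote sprouting through Sprouty2 and Sema6A, and miR-24 is known to repress GATA2 and PAK4. In cancer cells, miR-27a is known to repress the ubiquitin ligase subunit FBXW7, and miR-23a and miR-23b are known to repress glutaminase.

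The mature sequences are shown because they set which paralogs a short read can tell apart. They are RefSeq sequences of GRCh38.p14, written 5′ to 3′ with the seed in capitals.
hsa-miR-23a-3p: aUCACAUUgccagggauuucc
hsa-miR-23b-3p: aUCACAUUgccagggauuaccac
hsa-miR-27a-3p: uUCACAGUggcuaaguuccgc
hsa-miR-27b-3p: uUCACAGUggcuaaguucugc
hsa-miR-24-3p: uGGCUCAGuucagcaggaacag

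The members fell into 3 seed groups. miR-23a-3p and miR-23b-3p shared the seed UCACAUU, and miR-27a-3p and miR-27b-3p shared UCACAGU. miR-24-3p had GGCUCAG, which no other human mature miRNA in the RefSeq table carried. Of the other human miRNAs with a member's seed, miR-23c and miR-9985 had no row in the count table. Counting positions from 1 at the 5′ end, the paralogs differed by U19A in miR-23 and by C19U in miR-27, with miR-23b-3p also longer, at 23 bases against 21. The first 18 bases were therefore identical within each pair. Inserts of 16 to 27 bases were selected, so that a read ending at or before base 18 would carry the same letters for a and b, and the counting rule for such reads is not given in the sources used here.

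In the human genome (GRCh38.p14), the 23a/27a/24-2 hairpins lay at chr19:13836287-13836659 on the minus strand, within an exon of the long non-coding RNA MIR23AHG (GENCODE 44). The 23b/27b/24-1 hairpins lay at chr9:95085208-95086088 on the plus strand, inside the protein-coding gene AOPEP. MIR23B and MIR27B were in AOPEP introns, and MIR24-1 was in an annotated AOPEP exon at chr9:95085930-95086119. The hairpins of the first cluster spanned 373 bases and those of the second 881 bases. MIR24-1 and MIR24-2 yield the same mature 3p sequence, so miR-24-3p has 1 count for both loci. The antisense hairpin MIR3074 overlaps MIR24-1, and miR-3074-5p had between 1 and 5 reads per library.

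Total miRNA counts were 39211 to 66345 in the EV_soft libraries and 28688 to 30685 in the EV_stiff libraries, so every stiff library was shallower. A count of 0 allows up to 3 reads, which corresponded to between 44.8 and 108 CPM (reads scaled to a common library size). Levels are given as CPM after TMM scaling. Each read stands for 1 short RNA, so no correction for length was needed, although ligation and PCR can favor some sequences over others. A miRNA was tested when it passed the edgeR filter on low counts, which 105 miRNAs did, and passed the test at an adjusted p of at most 0.05 (edgeR quasi-likelihood test, Benjamini-Hochberg adjustment over the 105). Across all tested miRNAs the median log2 fold change of EV_stiff over EV_soft was -0.04, and 25 of 105 (23.8%) passed. Of the members, 4 were tested, and miR-23b-3p was too low. The EVs were measured in bulk, so a change in the number of EVs carrying a miRNA and a change in its amount per EV cannot be told apart.

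Markers of the labelled cell type were present: all 8 listed squamous epithelial miRNAs had reads, and together they took 6.51% to 7.22% of counts in EV_soft and 5.20% to 5.39% in EV_stiff. Of the 7 tested, 3 fell, all of the miR-200 family, and 0 rose by edgeR, DESeq2 or limma-voom (0, 1 and 1 higher and 4, 3 and 4 lower at an unadjusted p under 0.05). Of all 105 tested miRNAs, 12, 10 and 12 passed as lower and 13, 15 and 12 as higher by these tools. An unadjusted p under 0.05, in either direction, was found for 40%, 37.1% and 40% of them. In EV_stiff, miR-205-5p (means 29760 to 34300 CPM) and miR-203a-3p (974 to 2327 CPM) were higher without overlap (edgeR adjusted p = 0.168 and 0.127). miR-200a-3p, miR-200b-3p, miR-200c-3p and miR-429 were lower without overlap, and miR-31-5p was lower but overlapped. miR-141-3p, too low to be tested, had 13, 16 and 25 reads in EV_soft and 6, 2 and 2 in EV_stiff (means 351 to 115 CPM). Among all tested miRNAs, 22.9% were higher and 24.8% lower without overlap. The list of blood and serum miRNAs took 0.326% to 0.610% in EV_soft and 0.656% to 0.927% in EV_stiff, and miR-122-5p, a hepatocyte miRNA also found in serum, was the only one of its 2 tested members to rise. Of the 8 listed, miR-144-3p and miR-150-5p had no row in the table, miR-223-3p and miR-142-3p had 0 reads in all but 1 library each, and miR-142-5p in all but 2. The red cell miRNA miR-486-5p had 18, 55 and 30 reads in EV_soft and 8, 47 and 10 in EV_stiff, and miR-451a had 4, 8 and 0 against 3, 8 and 1, so that both overlapped between the groups. Stromal and muscle miRNAs were at most 0.107% and endothelial miRNAs at most 0.0196% of counts in any library. Both of these overlapped between the groups. As sums, the squamous and the blood and serum shares moved with the groups alongside the results that follow. The part of these shares in those results was not tested. Members of a list did not move together: squamous members went both ways, and of the blood and serum miRNAs only miR-122-5p did not overlap.

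The members differed widely in abundance. By total reads over the 6 libraries, miR-27a-3p ranked 6th, miR-24-3p 8th, miR-27b-3p 22nd, miR-23a-3p 55th and miR-23b-3p 132nd of all names. The 5 members held 9.47%, 9.16% and 9.53% of miRNA counts in the EV_soft libraries and 9.43%, 9.44% and 7.11% in the EV_stiff libraries. EV_stiff replicate 3 stood apart in this sum, and without it the difference of the means was 0.05 percentage points in place of -0.72. The groups overlapped (exact two-sided permutation test, p = 0.5, adjusted p = 0.5 over 6 shares).

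**Figure D1:**
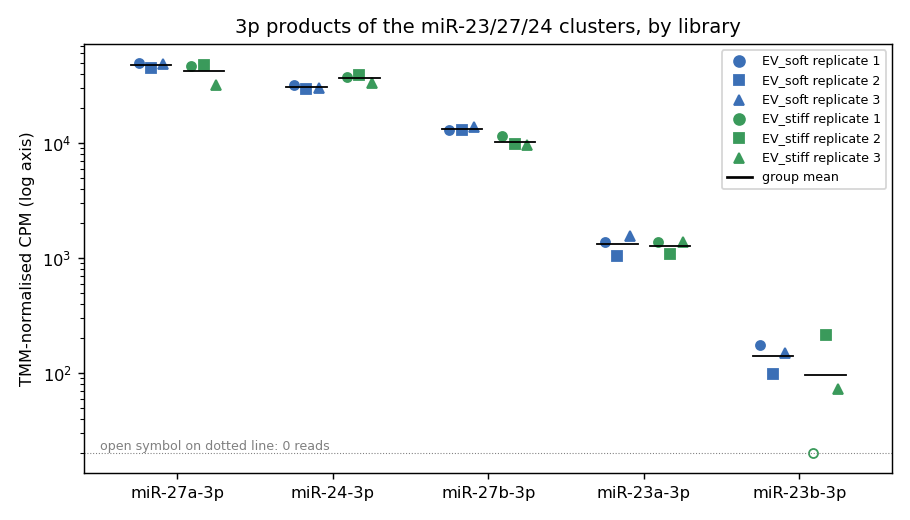
TMM-normalized CPM (log axis) of the 5 members in each library, with the group mean as a black line and an open symbol for a library with 0 reads. The stiff points of miR-27b-3p lie below its soft points and those of miR-24-3p lie above, while miR-27a-3p is set apart mainly by EV_stiff replicate 3 at 31904 CPM.

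miR-27b-3p was the member that passed the test, and it fell in EV_stiff. Its levels were 13096, 12967 and 13913 CPM in EV_soft and 11458, 9848 and 9553 CPM in EV_stiff. Every stiff library was below every soft library. The group means were 13325 ± 513 and 10286 ± 1025 CPM (SD, n = 3 each), a log2 fold change of -0.37 with a standard error of 0.11 and an adjusted p of 0.0308 by edgeR. The fall was smaller than the log2 change of 0.58 that the study used as its fold threshold, which 18.1% of tested miRNAs passed together with the adjusted p. Among the 105 tested, 11.4% passed in the lower direction and 24.8% had CPM that did not overlap and were lower in EV_stiff, so both features of miR-27b-3p were shared by other miRNAs. The call was lost when any of 4 single libraries was left out (EV_soft replicate 1 or 3, EV_stiff replicate 2 or 3), with adjusted p from 0.0585 to 0.186, and with DESeq2 the adjusted p was 0.0714.

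miR-27a-3p, the most abundant member, gave 49131, 44893 and 48412 CPM in EV_soft and 46264, 47443 and 31904 CPM in EV_stiff. Replicates 1 and 2 of EV_stiff lay within the soft range, and replicate 3 lay well below it. The means were 47479 ± 2268 and 41870 ± 8651 CPM (SD, n = 3 each), and the log2 fold change of -0.18 (standard error 0.14) had an edgeR adjusted p of 0.361. Without EV_stiff replicate 3 the log2 fold change was -0.01, with an adjusted p of 0.945. After TMM scaling the negative value therefore rested on 1 library. As raw share of counts, miR-27a-3p took 4.876%, 4.644% and 4.888% in EV_soft and 4.527%, 4.601% and 2.978% in EV_stiff. Every stiff share was below every soft share. Scaled by library size only, the log2 fold change was -0.25 (edgeR adjusted p = 0.229).

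miR-24-3p had higher levels in EV_stiff, at 37271, 38781 and 33274 CPM against 31619, 29559 and 30334 CPM in EV_soft. The groups did not overlap, which held in this direction for 22.9% of tested miRNAs. With means of 30504 ± 1041 and 36442 ± 2846 CPM (SD, n = 3 each), the log2 fold change was 0.26 with a standard error of 0.09, and the edgeR adjusted p of 0.0647 missed the threshold. The adjusted p was 0.0246 with DESeq2 and 0.0391 without EV_stiff replicate 3, and it ranged from 0.0246 to 0.679 over 16 alternatives. As raw share of counts, miR-24-3p took 3.14%, 3.06% and 3.06% in EV_soft and 3.65%, 3.76% and 3.11% in EV_stiff, where replicate 3 fell inside the soft range.

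The miR-23 pair was scarce. miR-23a-3p gave 63, 42 and 104 reads in EV_soft and 41, 30 and 38 reads in EV_stiff, or 1384, 1035 and 1553 CPM against 1366, 1078 and 1370 CPM. The stiff values all lay within the soft range. The log2 fold change was -0.07 with a standard error of 0.25 (edgeR adjusted p = 0.903), an error about as large as the change of miR-24-3p, so that a difference of that size was not detectable at this depth. miR-23b-3p gave 8, 4 and 10 reads in EV_soft and 0, 6 and 2 reads in EV_stiff. With at most 10 reads in a library it was not tested, and the 2 groups overlapped.

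**Figure D2:**
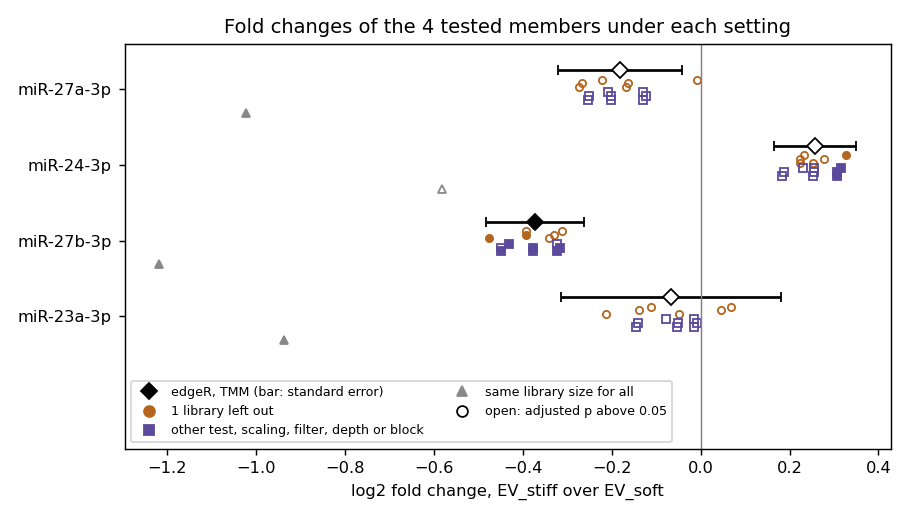
Log2 fold change of EV_stiff over EV_soft for the 4 tested members, with the edgeR value and its standard error (diamond) above the values with 1 library left out and under other settings. Filled symbols have an adjusted p of at most 0.05: miR-27b-3p stays negative throughout and miR-24-3p stays positive except when all libraries are given the same size, while miR-27a-3p moves to -0.01 without EV_stiff replicate 3.

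The a-to-b ratio asks whether 3p reads of the paralogs were counted in the same proportion in both groups, and it needs no scaling between libraries. It does not measure the output of the clusters. For miR-27 the a form exceeded the b form in every library, with 3.75, 3.46 and 3.48 reads of miR-27a-3p per read of miR-27b-3p in EV_soft and 4.04, 4.82 and 3.34 in EV_stiff. EV_stiff held both the highest and the lowest ratio. On the log2 scale the ratio was 1.83 ± 0.06 in EV_soft and 2.01 ± 0.26 in EV_stiff (SD, n = 3 each), a difference of 0.17 that was within the spread (exact two-sided permutation test, p = 0.4, adjusted p = 0.64 over 8 ratios). With 3 libraries per group, p = 0.1 was the smallest value this exact test could give.

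Expressed as a share, miR-27b-3p made up 21.0%, 22.4% and 22.3% of miR-27 reads in EV_soft and 19.9%, 17.2% and 23.04% in EV_stiff. The stiff libraries thus spread more than the soft libraries, with SDs of 2.93 and 0.765 percentage points. The summed miR-27 count, which is not changed by moving reads between a and b but would be by dropping or double counting shared reads, took 6.18%, 5.99% and 6.29% of counts in EV_soft and 5.65%, 5.56% and 3.87% in EV_stiff. All stiff shares were below all soft shares, at p = 0.1 and an adjusted p of 0.2 over 6 shares (exact permutation test). Within this set, the sum of 23a and 27a (means 4.94% and 4.16%) was also lower without overlap. So was the sum of 23b and 27b (1.36% and 1.00%), with the same p and adjusted p for both. These sums are made up largely of miR-27 reads, and the remaining shares of the set overlapped. The share of all miRNAs with raw shares lower in this way was not counted. In the edgeR fit with paralogs summed, miR-27 had a log2 fold change of -0.22, a standard error of 0.13 and an adjusted p of 0.228.

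For miR-23 the a form also dominated. miR-23b-3p made up 11.3%, 8.70% and 8.77% of miR-23 reads in EV_soft and 0%, 16.7% and 5.00% in EV_stiff. In EV_stiff replicate 1 the 0 of 41 reads allows a share of up to 7.32%. Pooled within groups, the share was 9.52% in EV_soft (95% exact binomial interval 6.07% to 14.1%) and 6.84% in EV_stiff (3.00% to 13.03%), intervals that cover counting error only. The log2 ratio was 3.15 ± 0.22 in EV_soft and 4.18 ± 2.08 in EV_stiff (SD, n = 3 each, 0.5 added to each count), and the exact permutation test gave p = 0.6 (adjusted p = 0.8). The difference of 1.03 became -0.06 without EV_stiff replicate 1, the library with 0 reads of miR-23b-3p. The summed miR-23 count had an edgeR log2 fold change of -0.11, a standard error of 0.25 and an adjusted p of 0.766.

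Products of the same cluster were not present in equal amounts. There were 34.3 reads of miR-27a-3p for each read of miR-23a-3p over all libraries, and in single libraries this ratio ran from 23.3 to 44. Between groups the log2 ratio differed by -0.16 (exact permutation test, p = 0.7, adjusted p = 0.8). In the other cluster, miR-27b-3p exceeded miR-23b-3p by a log2 ratio of 6.49 ± 0.37 in EV_soft and 7.19 ± 2.05 in EV_stiff (SD, n = 3 each; exact permutation test, p = 0.8, adjusted p = 0.8). The difference of 0.69 turned to -0.43 without EV_stiff replicate 1, whose value was set by 0 reads of miR-23b-3p plus 0.5.

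Against miR-24-3p, both miR-27 paralogs were lower in EV_stiff. Reads of miR-27a-3p per read of miR-24-3p were 1.55, 1.52 and 1.60 in EV_soft and 1.24, 1.22 and 0.959 in EV_stiff. EV_stiff replicate 3 was thus the only library in which miR-24-3p exceeded miR-27a-3p. The log2 ratio went from 0.64 ± 0.04 to 0.18 ± 0.21 (SD, n = 3 each), a difference of -0.46. Reads of miR-27b-3p per read of miR-24-3p were 0.414, 0.439 and 0.459 in EV_soft and 0.307, 0.254 and 0.287 in EV_stiff, and the log2 ratio went from -1.19 ± 0.07 to -1.82 ± 0.14, a difference of -0.63. For both ratios the groups did not overlap, with p = 0.1, the smallest that the exact permutation test allows, and an adjusted p of 0.4 over 8 ratios. Of the 104 other tested miRNAs, 37.5% had a ratio to miR-24-3p that was lower in EV_stiff without overlap, so this was a common pattern.

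The miR-23 forms gave no such separation from miR-24-3p. The log2 ratio of miR-23a-3p to miR-24-3p was -4.53 ± 0.27 in EV_soft and -4.83 ± 0.29 in EV_stiff (SD, n = 3 each; exact permutation test, p = 0.3, adjusted p = 0.64). That of miR-23b-3p was -7.69 ± 0.34 and -9.01 ± 1.92, with p = 0.4 and an adjusted p of 0.64 by the same exact test, and the difference of -1.32 shrank to -0.27 without EV_stiff replicate 1.

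**Figure D3:**
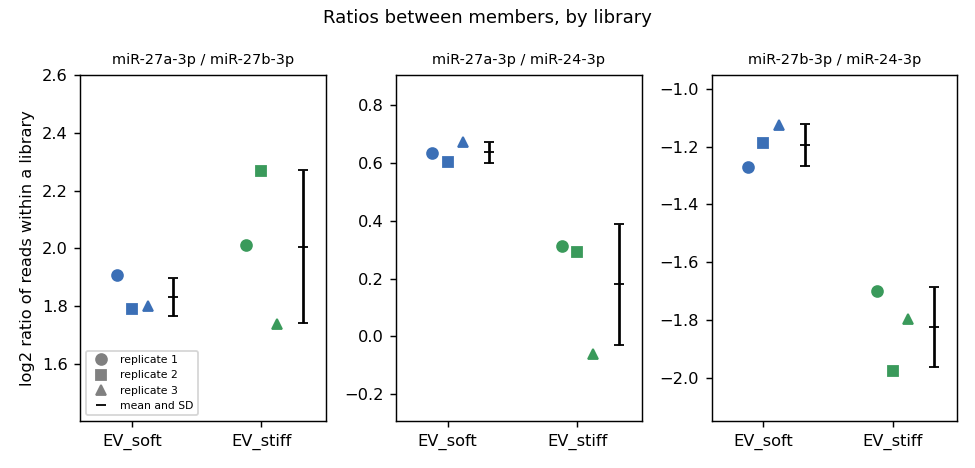
Log2 ratios of reads within each library for the miR-27 paralogs and for each of them against miR-24-3p, with the mean and SD beside the points, on axes of equal length. The paralog ratio overlaps between groups, while both ratios to miR-24-3p are lower in all 3 stiff libraries than in any soft library.

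The 5p arms tell how each hairpin was represented beyond its 3p product. MIR27A and MIR27B were almost entirely 3p, with 22 of 10916 reads (0.202%, exact binomial interval 0.126% to 0.305%) and 12 of 2949 reads (0.407%, 0.210% to 0.710%) from the 5p arm. MIR23A gave 30 of 348 reads from its 5p arm, or 8.62% (5.89% to 12.1%). Pooled by group this share was 6.28% in EV_soft and 12.8% in EV_stiff. By library it ran from 2.33% to 19.1%, beyond the interval, which covers counting error only. MIR23B differed from these hairpins in that its arms were near parity, with 43 of 73 reads (58.9%, 46.8% to 70.3%) from the 5p arm. The hairpins of the miR-23 pair are shown because they differ in the arm that was counted, in lower case with both mature arms in capitals (RefSeq, GRCh38.p14).
MIR23A: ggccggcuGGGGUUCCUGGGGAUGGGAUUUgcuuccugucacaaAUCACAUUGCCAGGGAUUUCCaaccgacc
MIR23B: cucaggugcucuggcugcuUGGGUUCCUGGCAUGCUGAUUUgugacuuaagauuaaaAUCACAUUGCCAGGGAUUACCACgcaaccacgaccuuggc

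By library, miR-23b-5p had 20, 3 and 6 reads in EV_soft and 7, 5 and 2 reads in EV_stiff. It exceeded miR-23b-3p in EV_soft replicate 1 and EV_stiff replicate 1, and without these 2 libraries the 5p arm had 16 reads and the 3p arm 22 (42.1% 5p), so the excess of 5p reads rested on them. The 5p arms of the miR-23 pair differ at 7 of 22 positions, compared with 1 of 21 for the 3p arms, so that more bases of a 5p read tell a from b. On the 5p arms the b form had 43 reads and the a form 30, whereas on the 3p arms the b form had 30 reads and the a form 318. Without EV_soft replicate 1 the order on the 5p arms turned, with 23 reads of b and 28 of a, so these arms gave no stable order, while on the 3p arms there were 22 reads of b and 255 of a.

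The 5p arms also separate the miR-24 loci, whose 3p products are identical. Of 43 reads, 42 were miR-24-2-5p, from the 23a/27a/24-2 cluster, and 1 was miR-24-1-5p, a share of 2.33% (exact binomial interval 0.0589% to 12.3%). miR-24-2-5p was found in every library, with 10, 4 and 11 reads in EV_soft and 8, 5 and 4 reads in EV_stiff. The single miR-24-1-5p read was in EV_stiff replicate 3. These shares describe the 5p products that were counted and do not measure from which locus miR-24-3p came.

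**Figure D4:**
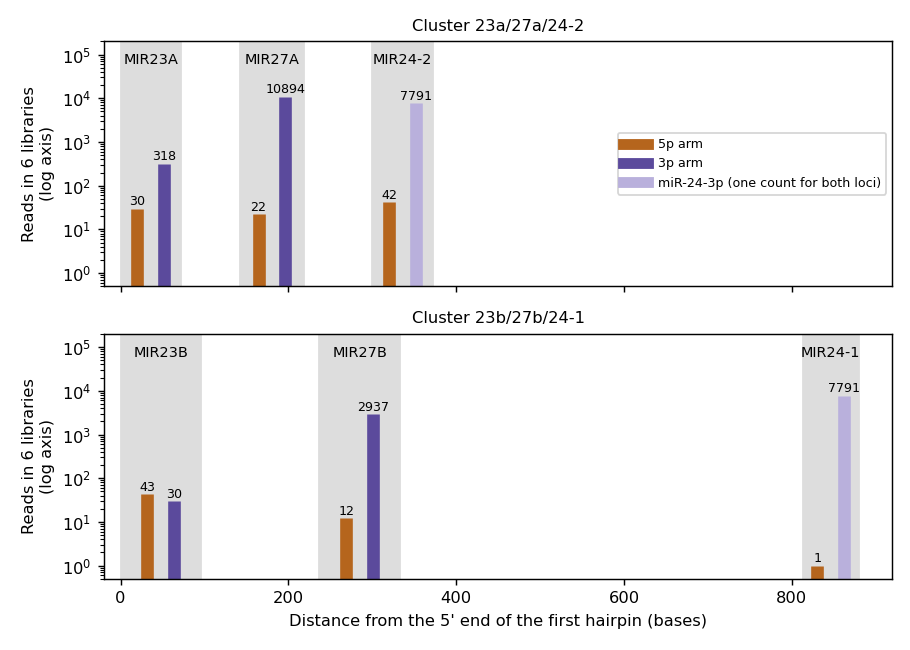
Reads of each 5p and 3p arm summed over the 6 libraries (log axis), placed at their hairpins along the 2 clusters, with distance in bases from the start of the first hairpin; miR-24-3p is drawn at both loci although it has 1 count. The 3p arm exceeds the 5p arm by far in MIR23A, MIR27A and MIR27B but not in MIR23B, with 43 5p reads and 30 3p reads.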

How the data were processed

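The authors extracted RNA from iDEP-isolated EVs (miRNeasy Micro), prepared NEBNext small RNA libraries from about 8 ng with 15 PCR cycles, checked the reads with exceRpt and deposited raw read counts per miRNA name, with features as defined in RefSeq and hg38 named in the submitters' processing notes. The miRNA aligner and the handling of reads that match several miRNAs are not given in the sources used here, and duplicate removal is not mentioned, so intervals cover counting error only. Groups came from the labels.

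Counts were analyzed with edgeR 4.0.16 (filterByExpr, TMM, quasi-likelihood test) in R 4.3.3, with limma 3.58.1 and DESeq2 1.42.0 as alternatives. Standard errors are the absolute log2 fold change divided by the square root of F. Ratios (0.5 added to counts) and shares were compared by exact two-sided permutation tests, adjusted over 8 ratios and 6 shares. No library matched another within sampling noise (chi-square test of counts). Members and lists were chosen with earlier results of these data known. The miRNAs named were the members, the other products of their hairpins, miRNAs with the same seed, the 3 most similar profiles for each member, the other paralog pairs at the extremes, and the listed markers and angiogenesis miRNAs. Of the markers, those named singly in the text were chosen after their values were seen. Alternatives covered the test, scaling, filter, depth, replicate block and each library left out.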

Additional observations from a re-analysis of the deposited data

How the results depend on the processing

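The number of miRNAs that passed was 25, ranged from 17 to 30 under all alternatives but 1, from 19 to 30 with 1 library left out, and was 57 when every library was given the same size, all 57 lower and 12 of them shared with the 25. That setting does not correct for depth, which was lower in every stiff library. It shifted the median log2 fold change of all tested miRNAs to -0.89. It gave -0.94 (adjusted p = 0.0298 by edgeR) for miR-23a-3p, -1.02 (0.00203) for miR-27a-3p, -1.22 (0.000152) for miR-27b-3p and -0.58 (0.0709), of opposite sign, for miR-24-3p. Relative to the shifted median these were -0.05, -0.13, -0.33 and 0.31, so miR-24-3p stayed above the median of all tested miRNAs. The fall of miR-27b-3p kept its sign in 15 of 15 alternatives and passed in 9, among them the same-size fit, where the shift of all miRNAs was also downward. Apart from that fit it passed in 6 of 8 alternatives that kept all libraries and in 2 of 6 with 1 library left out. It missed with DESeq2 (-0.32, adjusted p = 0.0714), without the filter (-0.45, 0.132) and in 4 of 6 fits with 1 library left out (all 6 from -0.48 to -0.31). miR-24-3p passed with DESeq2 (0.31, 0.0246), RLE factors (0.31, 0.0287), upper quartile factors (0.32, 0.0282) and without EV_stiff replicate 3 (0.33), its leave-one-out range being 0.22 to 0.33. With 1 library left out miR-23a-3p ran from -0.21 to 0.07, and was positive without EV_soft replicate 3 (0.069) or EV_stiff replicate 2 (0.046), while miR-27a-3p ran from -0.27 to -0.01. The cause of these changes was not tested. The labels do not say whether replicate numbers pair soft with stiff libraries. No shared effect of the number was visible (correlations of same-numbered libraries -0.13, 0.13 and -0.03), but 3 libraries per group cannot exclude pairing. With the replicate block 23 miRNAs passed, 22 of them shared, miR-27b-3p was at -0.38 (adjusted p = 0.041), miR-24-3p at 0.25 (0.0743), and no call of a member changed. The differences in ratio to miR-24-3p stayed between -0.52 and -0.34 for miR-27a-3p and between -0.69 and -0.56 for miR-27b-3p, that of miR-27a-3p to miR-27b-3p between 0.04 and 0.31, and that of miR-23a-3p to miR-23b-3p between -0.06 and 2.01. Ratios with miR-23b-3p had no value without a pseudocount, since 1 library had 0 reads. Without the filter miR-23b-3p had a log2 fold change of -0.64 with a standard error of 0.95 (edgeR adjusted p = 0.681). Depth limits miR-23b-3p and the 5p arms most. The summed-paralog fits, the block for the shares and the miR-23 arm counts without libraries were chosen after seeing the data.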

Other observations

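Other paralogous miRNA pairs put the miR-27 ratio in context. Of 32 pairs listed, 15 had at least 10 reads of both members in every library, and the absolute difference of their log2 ratio between EV_stiff and EV_soft had a median of 0.37. In 12 of these 15 pairs it was larger than the 0.17 of miR-27a-3p to miR-27b-3p, and in 4 the groups did not overlap. The lowest count of a pair in any library was 10 to 698 reads, against 265 for the miR-27 pair. Counting error is larger in pairs with few reads, so these differences do not rank the stability of the ratios. The largest differences were those of miR-193a-5p to miR-193b-5p, at -1.58, and of miR-146a-5p to miR-146b-5p, at -1.19, both lower in EV_stiff. The smallest were those of miR-320a to miR-320b, at 0.09, and of miR-92a-3p to miR-92b-3p, at -0.11. These pairs were described without a test, and some of them share a member.

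Of 16 listed miRNAs known for roles in angiogenesis, a setting in which the miR-23, miR-27 and miR-24 clusters are often studied, 15 were in the table and 8 were tested. By edgeR, DESeq2 and limma-voom, 0 of the 8 passed at an adjusted p of at most 0.05, beside 25, 25 and 24 of the 105 tested. An unadjusted p under 0.05 was found for 3, 3 and 4 of the 8, and for 42, 39 and 42 of the 105. The median log2 fold change of the 8 was -0.20 beside -0.04 for all tested miRNAs. The largest changes were those of miR-17-5p, a member of the miR-17-92 cluster, at -1.08 (adjusted p = 0.0882 by edgeR), and miR-20a-5p of the same cluster, at -0.81 (adjusted p = 0.132). The third tested miRNA of that cluster, miR-92a-3p, was at 0.26 (adjusted p = 0.0928 by edgeR).

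The tested miRNAs whose log2 CPM followed a member most closely over the 6 libraries are given with Pearson's r as a description. These libraries share depth and scaling, and the best of 104 values is high by construction. For miR-27b-3p they were miR-429 (0.97), miR-30a-5p (0.94) and miR-7-5p (0.94). For miR-27a-3p they were miR-17-5p (0.94), miR-222-3p (0.88) and miR-200b-5p (0.87), and for miR-24-3p miR-455-5p (0.95), let-7e-5p (0.90) and miR-532-5p (0.90). For miR-23a-3p they were miR-30e-5p (0.88), miR-2110 (0.83) and miR-191-5p (0.81). Products of 1 cluster were not each other's closest profiles. The r of miR-23a-3p was -0.07 with miR-27a-3p and -0.18 with miR-24-3p, at only 30 to 104 reads of miR-23a-3p per library. The r of miR-24-3p was 0.00 with miR-27a-3p and -0.72 with miR-27b-3p. The paralogs miR-27a-3p and miR-27b-3p had an r of 0.64.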
